A study of Homo sapiens with 2 samples.

Results

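The genes described here are 33 genes of glycolysis and of the cellular response to low oxygen, taken as a list of symbols and matched to the Ensembl identifiers of the count tables. All 33 were matched, among 57820 gene rows in all. Their levels were read in 2 libraries of total RNA from T47D cells, an established human line of luminal, hormone receptor-positive breast carcinoma. The cells carried the ESR1 change Y537S, which leaves estrogen receptor alpha active without ligand, were seeded in hormone-deprived medium and received 25 nM of a control siRNA. Both libraries belong to this 1 group, so every value below describes this state and no comparison between conditions was made. The labels do not say how the change was introduced, whether the cells were 1 clone, which oxygen level they grew in, or if each replicate is a culture of its own. Differences between the libraries may thus be technical.

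The libraries held 41370662 and 37198274 reads on genes. Levels are in CPM (reads of a gene scaled to a common library total) or in TPM (scaled also to the summed exon length of a gene), as mean ± SD over the 2 libraries. Detection means at least 1 CPM in each library. All 8 luminal markers were detected, with summed levels of 2587 and 2422 TPM in replicates 1 and 2. None of the 4 basal, 4 mesenchymal, 3 immune and 3 endothelial markers was, and each of those lists summed to less than 1 TPM in either library. Other rows cover 85.8% of the CD68 exon bases, 40.2% of those of KRT17 and 25.4% of those of VIM. Reads of these immune, basal and mesenchymal markers could thus be lost. The basal marker TP63 had 1.47 CPM in replicate 1 and 0.806 in replicate 2. The immune marker PTPRC had 0 and 17 reads, and the endothelial marker VWF 0 and 12. Nuclear protein-coding genes took 29.8% of the TPM scale in replicate 1 and 26.4% in replicate 2. The ratio of these shares, replicate 2 to replicate 1, was 0.886. In TPM 24 of the 33 members were lower in replicate 2, and 13 were when TPM was taken over nuclear protein-coding genes alone.

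Glycolysis splits glucose into pyruvate in the cytosol, and lactate dehydrogenase can then turn pyruvate into lactate, which monocarboxylate transporters export. Hypoxia-inducible factors pair an oxygen-controlled alpha subunit with the stable partner ARNT. In the presence of oxygen, prolyl hydroxylases mark the alpha subunit for destruction through VHL. The factors induce glucose transporters, glycolytic enzymes and targets such as VEGFA and CA9, and tumour cells often keep high glycolytic flux also with oxygen present. The protein level of the alpha subunits, which oxygen sets, was not measured by these data.

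Of the 33 genes, 31 were detected, against 60.9% of all 19250 nuclear protein-coding genes and 24.5% of all gene rows. The members not detected were the lactate dehydrogenase subunit LDHB and the carbonic anhydrase CA9. The median level of the 33 genes was 15.3 TPM, beside 9.19 TPM over the 11718 detected nuclear protein-coding genes. Together the members took 0.559% of the reads of replicate 1 (exact binomial 95% interval 0.556 to 0.561) and 0.551% of those of replicate 2 (0.549 to 0.553). These intervals, like those below, cover counting error only. Enzymes of lower glycolysis had the highest median of the 6 roles, 116 TPM, followed by upper glycolysis with 34.8 TPM. Oxygen sensing genes had a median of 6.15 TPM, transporters 5.43, genes that set the fate of pyruvate 5.09 and hypoxia targets 3.64 TPM.

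**Figure D1:**
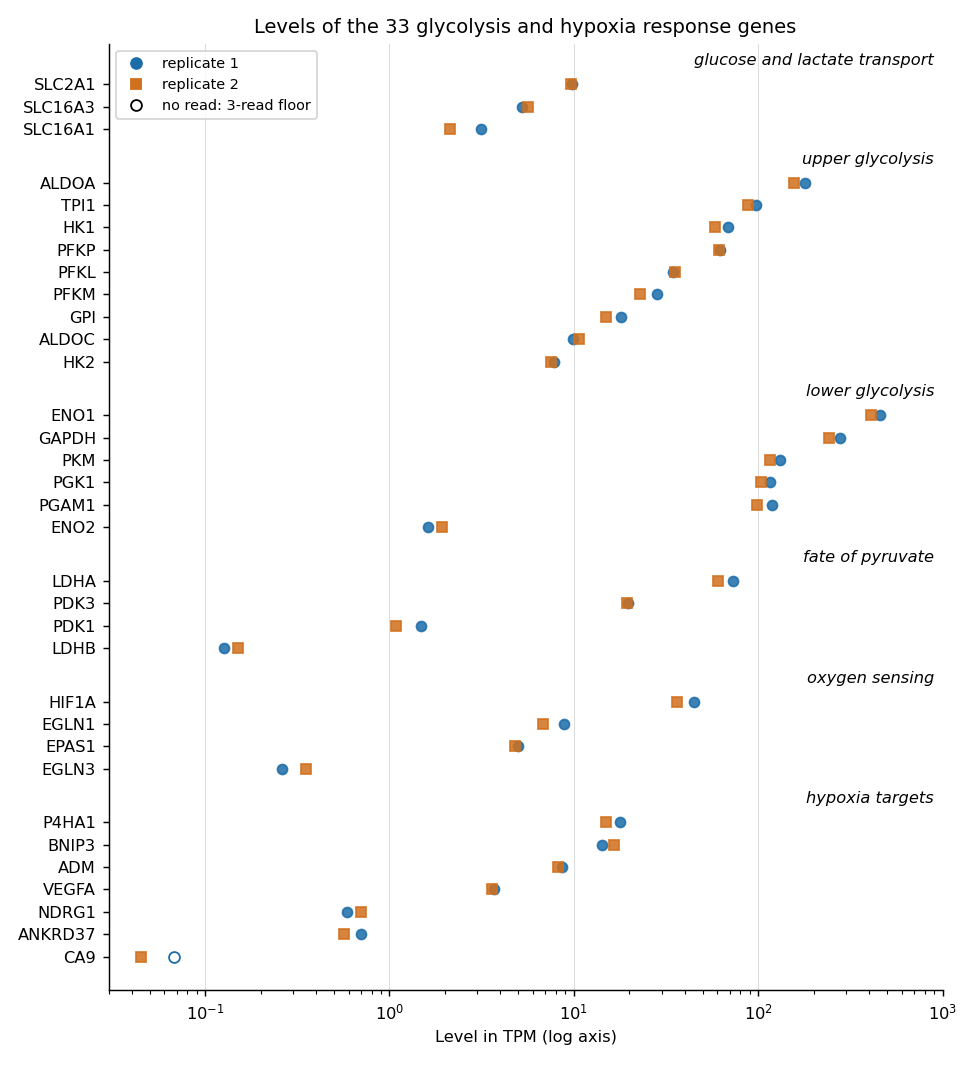
Level in TPM (log axis) of the 33 genes in replicate 1 (circles) and replicate 2 (squares), grouped by role and ordered by mean within a role. ENO1 stands at the top with 436 TPM, while LDHB lies near 0.139 TPM and CA9, with no read in replicate 1 (open symbol at the 3-read floor), is lowest.

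Glucose enters cells through facilitative transporters, of which SLC2A1 (GLUT1) is the broadly expressed form. SLC2A1 (ENSG00000117394.15, chromosome 1, 43391052 to 43424530 in hg19) had 9.72 TPM in replicate 1 and 9.69 in replicate 2. These are nearly the same value, from 1084 and 1081 reads. The neuronal-type transporter SLC2A3 had no read in either library. Against the floor of 3 reads per library, SLC2A1 was at least 529-fold higher in replicate 1 and at least 527-fold higher in replicate 2. Other genes hold 16.1% of the 50-base words of SLC2A3, so some of its reads could be lost. SLC2A10 was the next of the 5 glucose transporters examined, with 2.68 and 4.18 TPM. SLC2A1 thus held 76% and 68.1% of their summed TPM, and SLC2A10 21% and 29.4%.

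At the first step, where hexokinase traps glucose as its phosphate, the housekeeping isozyme HK1 was the main transcript. HK1 (ENSG00000156515.17, chromosome 10, 71029740 to 71161638) was at 68.2 TPM in the first library and 58.5 TPM in the second. HK2, the inducible isozyme often raised in tumours, had 7.81 and 7.49 TPM. HK1 was 8.73-fold above HK2 in replicate 1 (95% counting interval 8.24 to 9.26) and 7.81-fold in replicate 2 (7.36 to 8.30). It held 89.2% ± 0.75 (SD, n = 2) of the hexokinase TPM. HK3 had 2 and 1 reads. The isomerase GPI, the next enzyme, had 18.0 and 15 TPM, the lowest total of the 11 enzymatic steps from hexokinase to lactate dehydrogenase.

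Phosphofructokinase, the committed and most regulated step, was the step of glycolysis with the most even mix of isozymes. The platelet-type PFKP had 62.4 and 61.1 TPM, the liver-type PFKL 34.3 and 35.3, and the muscle-type PFKM 28.3 and 22.8 TPM in replicates 1 and 2. Their shares of the step were 50.6% ± 0.939, 28.5% ± 1.52 and 20.9% ± 2.46. PFKP exceeded PFKL 1.82-fold (1.76 to 1.87) and 1.73-fold (1.68 to 1.78) in the 2 libraries, larger than the replicate spread. In CPM, where length is not divided out, the ratio was 0.959, and PFKL has 8926 exon bases against 4827 for PFKP. PFKL exceeded PFKM 1.22-fold in replicate 1 (1.17 to 1.26) and 1.55-fold in replicate 2 (1.49 to 1.61), and from replicate 1 alone this ratio lay within the replicate spread.

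Aldolase cuts the sugar bisphosphate into trioses, and the muscle and general isozyme ALDOA carried 94.2% ± 0.84 of its transcripts. ALDOA had 179 and 156 TPM and the brain-type ALDOC 9.92 and 10.7. ALDOA was 18.1-fold (16.8 to 19.5) and 14.6-fold (13.6 to 15.6) above ALDOC. The mean fold of 16.2 became 34.1 in CPM. No other row overlaps the exons of ALDOA. Of its 50-base words, taken from GENCODE 29 transcripts, 48.1% also occur in other genes, with the most in AC093512.2. No option to count reads that fit several places is recorded. ALDOA may thus be underestimated, but where the shared words lie in the genome was not examined. TPI1, which interconverts the trioses, had 97.0 and 87.7 TPM, with 12.6% of its words in other genes.

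The lower, energy-yielding steps held the most abundant members. ENO1 (ENSG00000074800.9, chromosome 1, 8921061 to 8939308), the ubiquitous enolase, had 460 TPM in replicate 1 and 411 in replicate 2, from 48296 and 43182 reads. It ranked 60 among nuclear protein-coding genes by mean TPM. GAPDH, the dehydrogenase long used as a reference transcript, followed with 276 and 242 TPM at rank 107. PKM, whose muscle-type and tumour-type splice forms a gene count does not separate, had 131 and 116 TPM. The first ATP-forming enzyme PGK1 had 115 and 103 TPM and the mutase PGAM1 119 and 97.9, so this pair changed places between the libraries and did not differ beyond its spread. Other genes hold 30.7% of the 50-base words of PGAM1 and 17.7% of those of GAPDH, so both may be underestimated, whereas the share was 3.24% for ENO1 and 0.654% for PKM.

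Tissue-restricted isozymes of these steps were low or without reads. The neuronal enolase ENO2 had 1.61 and 1.92 TPM, and ENO1 was 285-fold (247 to 332) and 214-fold (188 to 246) above it. The muscle enolase ENO3 had 1.06 and 1.20 TPM. The testis forms PGK2 and LDHC and the muscle mutase PGAM2 had no read in either library, though every exon base of PGAM2 is also covered by another row, so its reads could not be assigned. The sperm form GAPDHS, with 60.8% of its exon bases covered by other rows, had 4 and 2 reads, and the liver pyruvate kinase PKLR had 0 and 2.

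**Figure D2:**
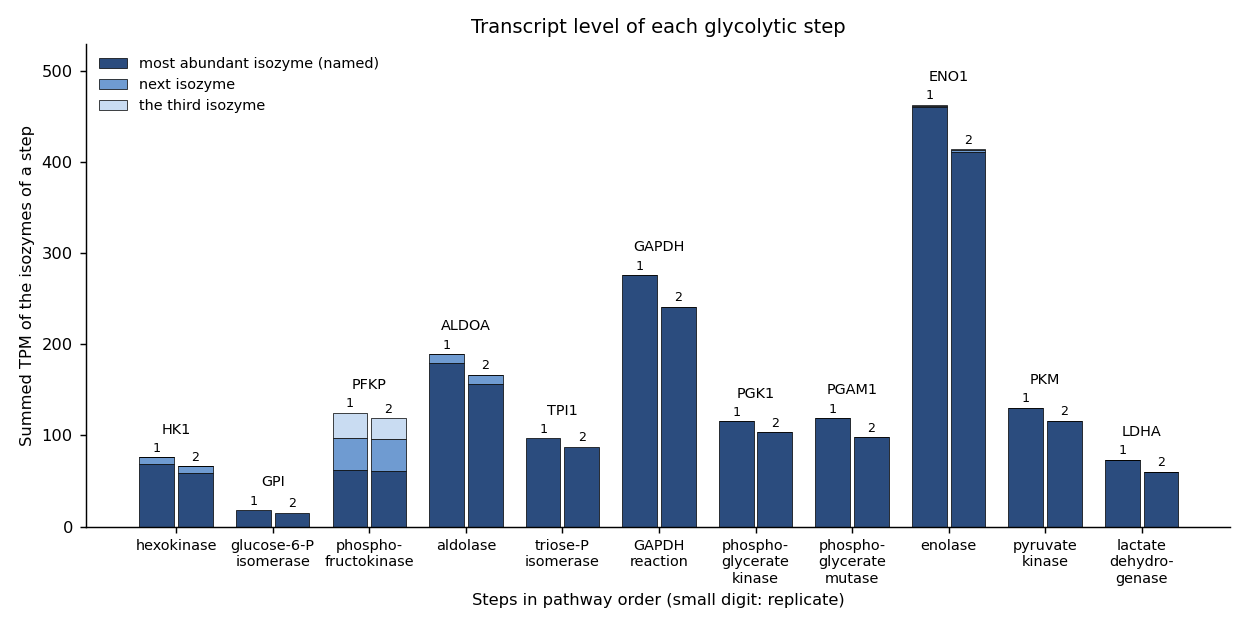
Summed TPM of the isozymes at each step from hexokinase to lactate dehydrogenase, in pathway order, with 1 bar per library (small digit: replicate) and shades for the isozymes. Enolase has the highest total (439 ± 34.3 TPM), the isomerase step the lowest (16.5 ± 2.14 TPM), and phosphofructokinase alone shows 3 clearly visible isozymes.

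Between steps, the totals ran from 71 ± 7.05 TPM for hexokinase to 16.5 ± 2.14 for the isomerase, 122 ± 4.09 for phosphofructokinase, 178 ± 15.9 for aldolase and 92.3 ± 6.55 for TPI1. They then reached 259 ± 24.4 TPM for the GAPDH step, 109 ± 8.53 for phosphoglycerate kinase, 109 ± 15 for the mutase and 439 ± 34.3 for enolase. Pyruvate kinase had 124 ± 10.2 TPM and lactate dehydrogenase (LDHA, LDHB and LDHC) 66.8 ± 9.09. GAPDH and enolase thus stood above every other step in both libraries in TPM. In CPM, which does not divide by length, GAPDH had a mean of 519, below PKM with 714 and ALDOA with 696. These are values of single genes, and totals of steps with several isozymes are not given in CPM. Transcript totals say nothing of enzyme amount or flux, which were not measured.

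Among LDHA, LDHB and LDHC, the genes counted as the lactate dehydrogenase step, transcripts came almost entirely from LDHA. The muscle-type subunit LDHA (ENSG00000134333.9, chromosome 11, 18415935 to 18429972) had 12035 and 9921 reads, or 73.1 and 60.3 TPM. The heart-type subunit LDHB (ENSG00000111716.8, chromosome 12, 21788276 to 21910791) had 10 and 12 reads, or 0.127 TPM (95% counting interval 0.0607 to 0.233) and 0.152 TPM (0.0784 to 0.265). LDHA was 578-fold above LDHB in replicate 1 (314 to 1206) and 397-fold in replicate 2 (227 to 769), and the mean fold of 479 became 997 in CPM. LDHA held 99.8% ± 0.0555 of the summed TPM of LDHA, LDHB and LDHC. LDHD, a gene of the wider list not counted in this step, had 26.9 and 27.6 TPM. No other row of the table overlaps the exons of LDHB, and 29.4% of its 50-base words occur in other genes, so most of the gene could collect reads.

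The promoters of this pair are shown because they belong to the members with the widest isozyme ratio. They are RefSeq windows of GRCh38.p14 from 250 bases before to 50 bases after an annotated start, written 5′ to 3′ on the strand of the gene: LDHA at chr11:18394313-18394612, plus strand, the first of the LDHA starts in the table, and LDHB at chr12:21657793-21658092, minus strand. Capitals mark the core letters ACGTG and GCGTG, recognised by hypoxia-inducible factors, on either strand, and overlapping matches run together (CACGTG holds 2).
LDHA: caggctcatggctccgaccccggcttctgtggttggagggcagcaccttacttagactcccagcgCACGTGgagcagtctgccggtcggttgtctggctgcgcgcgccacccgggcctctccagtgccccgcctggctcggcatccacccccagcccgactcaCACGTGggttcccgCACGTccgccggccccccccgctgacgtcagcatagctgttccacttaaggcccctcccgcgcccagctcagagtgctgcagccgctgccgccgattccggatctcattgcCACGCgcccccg
LDHB: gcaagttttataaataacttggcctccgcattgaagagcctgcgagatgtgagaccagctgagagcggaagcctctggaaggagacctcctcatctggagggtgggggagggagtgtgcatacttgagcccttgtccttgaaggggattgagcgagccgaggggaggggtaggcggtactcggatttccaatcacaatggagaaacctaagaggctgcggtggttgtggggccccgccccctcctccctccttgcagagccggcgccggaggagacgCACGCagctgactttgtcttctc
The LDHA window holds 6 matches and 29 CpG dinucleotides, and the LDHB window 1 match and 14 CpG, where the median over all 35116 windows is 14. The other LDHA window in the table, at another start, holds 1 match and 31 CpG, so the count for LDHA depends on the start. At least 1 of the 2 cores occurs in 48.4% of all windows of this length and in 37 of the 56 windows of the 30 members in that table (66.1%). Both cores contain a CpG, and windows differ in CpG number (quartiles 4 and 28 over all windows). Some members also give many windows, HK1 and PFKM 7 each. The shares were not adjusted for either, and their difference was not tested. A match describes letters only, and binding was not measured here.

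Export of lactate and the entry of pyruvate into mitochondria involve the remaining metabolic members. SLC16A3 (MCT4), a low-affinity exporter of lactate, had 5.24 and 5.62 TPM, and SLC16A1 (MCT1), which moves lactate either way, had 3.12 and 2.14. SLC16A3 exceeded SLC16A1 1.68-fold (1.52 to 1.86) and 2.63-fold (2.34 to 2.96). Pyruvate dehydrogenase kinases switch off the entry enzyme by phosphorylation. PDK3 was the highest of the 4, with 19.6 and 19.5 TPM, or 75% ± 1.57 of their sum. The hypoxia-inducible PDK1 had 1.49 and 1.08 TPM and the general form PDK2 4.29 and 4.05. PDK3 exceeded PDK1 13.2-fold (12.0 to 14.5) and 18.1-fold (16.2 to 20.2). The mean fold of 15.4 was 2.75 in CPM, since PDK1 has 15115 annotated exon bases and PDK3 2695. PDK2 exceeded PDK1 2.88-fold (2.57 to 3.23) and 3.74-fold (3.30 to 4.25). In CPM that mean fold of 3.29 fell to 1.19, within the replicate spread, and other rows cover 38.6% of the PDK2 exon bases.

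Among the oxygen sensing genes, HIF1A was the main alpha subunit transcript. HIF1A (ENSG00000100644.12, chromosome 14, 62162231 to 62214976) had 44.9 and 36.2 TPM and EPAS1, which encodes the second alpha subunit HIF2A, had 5.0 and 4.79. HIF1A stood 8.98-fold (8.39 to 9.62) and 7.56-fold (7.04 to 8.12) above EPAS1, and held 89.1% ± 1.23 of the alpha subunit TPM. HIF3A had 0 and 8 reads. Their partner ARNT had 17 and 16.3 TPM, so that HIF1A exceeded it 2.64-fold (2.52 to 2.76) and 2.22-fold (2.12 to 2.33).

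Of the prolyl hydroxylases that act on these subunits, EGLN3 was by far the lowest. EGLN1 (PHD2), the main oxygen sensor in most cells, had 8.83 and 6.78 TPM, and EGLN2 (PHD1) had 6.56 and 6.51. This pair was the exception among the 17 pairs compared: the ratio was 1.35 in replicate 1 (1.247 to 1.451) and 1.04 in replicate 2 (0.961 to 1.13), within the replicate spread. From replicate 1 alone it lay beyond that spread. Of the EGLN2 exon bases, 27.2% lie under other rows as well. EGLN3 (PHD3), itself a strongly hypoxia-inducible gene, had 51 and 69 reads, or 0.262 and 0.354 TPM. EGLN1 was 33.8-fold (25.6 to 45.5) and 19.2-fold (15 to 24.8) above it.

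The hypoxia targets spanned the range from moderately expressed genes to one without clear signal. P4HA1, a collagen prolyl hydroxylase subunit, had 17.8 and 15 TPM, and BNIP3, a mitophagy receptor, had 14.2 and 16.6. The vasoactive peptide gene ADM had 8.68 and 8.19 TPM. VEGFA (ENSG00000112715.16, chromosome 6, 43737921 to 43754224), the angiogenic growth factor, had 3.67 and 3.62 TPM from 1403 and 1384 reads. VEGFA has 14431 exon bases. In CPM, which does not divide by length, its mean of 35.6 was the highest of the hypoxia targets, beside 35.2 for P4HA1. The stress- and differentiation-linked gene NDRG1 had 0.588 and 0.703 TPM. ANKRD37, an ankyrin repeat gene used as a hypoxia marker, had 0.702 and 0.570 TPM, and it is uncertain, with 35.2% of its exon bases also in other rows. NDRG1 and ANKRD37 changed places between the libraries.

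BNIP3L, the relative of BNIP3, had 36.5 and 26.2 TPM and exceeded it 2.58-fold (2.39 to 2.79) and 1.58-fold (1.47 to 1.70), and the mean fold of 2.02 was 4.12 in CPM. For the collagen hydroxylase subunits the order depended on length: P4HA1 exceeded P4HA2 2.10-fold (1.96 to 2.25) and 1.90-fold (1.77 to 2.05) in TPM, but in CPM the ratio of P4HA1 to P4HA2 was 0.750.

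The carbonic anhydrases of the cell surface differed widely in level. CA9 (ENSG00000107159.8, chromosome 9, 35673853 to 35681156), a target often used to mark hypoxic tumour regions, had no read in replicate 1 and 2 reads in replicate 2. The floor of 3 reads corresponds to 0.0678 TPM in either library. CA12, a relative also expressed under estrogen, had 17674 and 15215 reads, or 91.2 and 78.5 TPM. CA12 was at least 1345-fold higher in replicate 1, and the ratio for replicate 2 was 1737 (95% counting interval 481 to 14346). The first value is a bound from the floor and the second a ratio of counted reads, so they do not rank the libraries. Exons of other rows overlap 38.5% of the CA9 exon bases, and reads there could be lost.

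The promoters of CA9 and CA12 are shown beside this contrast, from the same RefSeq table and with the same marks: CA9 at chr9:35673678-35673977, plus strand, and CA12 at chr15:63381797-63382096, minus strand.
CA9: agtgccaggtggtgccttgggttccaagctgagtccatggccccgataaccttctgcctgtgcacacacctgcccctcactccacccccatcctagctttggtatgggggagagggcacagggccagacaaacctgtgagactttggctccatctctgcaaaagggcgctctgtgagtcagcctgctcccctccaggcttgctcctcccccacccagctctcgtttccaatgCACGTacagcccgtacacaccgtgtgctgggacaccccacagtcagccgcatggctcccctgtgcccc
CA12: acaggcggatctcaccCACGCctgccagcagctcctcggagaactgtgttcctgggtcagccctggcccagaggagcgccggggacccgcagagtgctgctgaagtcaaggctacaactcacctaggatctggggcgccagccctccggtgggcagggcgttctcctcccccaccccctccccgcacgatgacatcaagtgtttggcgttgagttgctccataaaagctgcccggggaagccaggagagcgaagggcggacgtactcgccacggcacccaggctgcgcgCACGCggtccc
The CA9 window holds 1 match, which begins 18 bases before the start, and 7 CpG dinucleotides. The CA12 window holds 2 matches and 22 CpG dinucleotides. At least 1 core occurs in 48.4% of all windows of this length. Whether core matches go with the level of a gene was not tested.

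**Figure D3:**
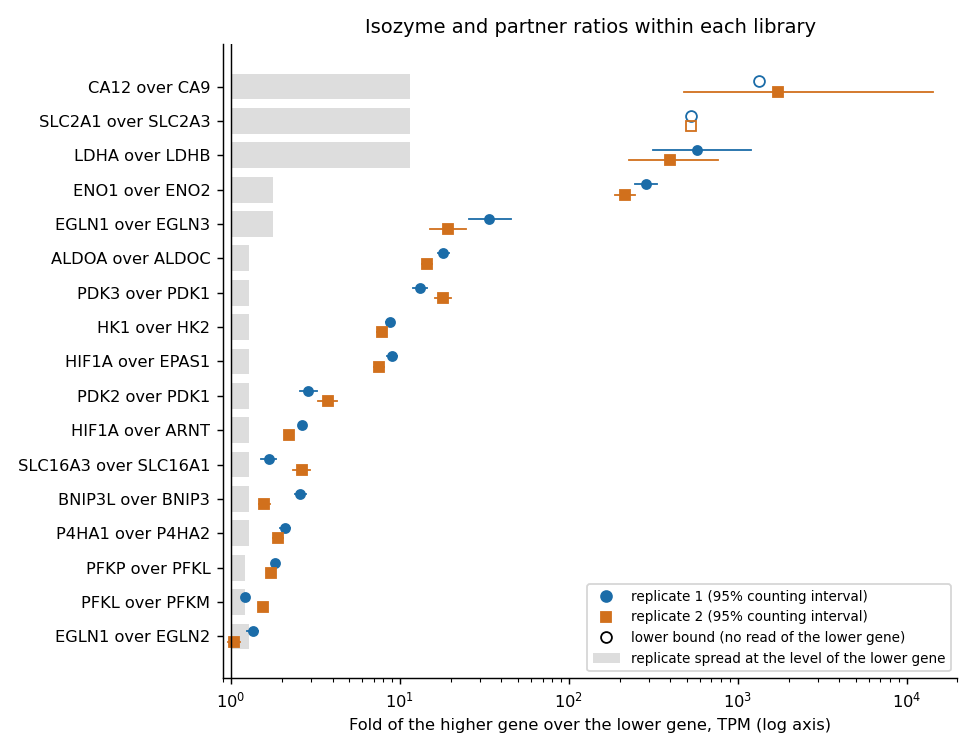
Fold of the higher over the lower gene of each of 17 pairs in TPM (log axis), in replicate 1 (circles) and replicate 2 (squares), with 95% counting intervals, open symbols for lower bounds and grey bars for the replicate spread at the level of the lower gene. All pairs lie to the right of the bars in both libraries except EGLN1 over EGLN2, with 1.04 in replicate 2, and PFKL over PFKM, with 1.22 in replicate 1.

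For a pair to count as different, the counting interval of each library had to exclude equality. The mean log2 ratio also had to be wider than 95% of the differences between the libraries seen for genes as abundant as the lower partner. By this rule 16 of 17 pairs differed. How often other pairs of genes pass the rule was not computed. The count thus describes these pairs and does not set them apart from other genes. Of the 10 pairs in which no gene shares 10% or more of its exon bases or 50-base words with other genes, 10 differed. This filter was added after the data were seen. It also removes EGLN1 with EGLN2, the 1 pair that did not differ. Of the 33 members 9 reach that share: ALDOA, ALDOC, TPI1, GAPDH, PGAM1, LDHB, CA9, BNIP3 and ANKRD37. Ordered by level, 24 of the 32 neighbouring members had ranges that did not overlap. The other 8 neighbours overlapped, among them HK1 with PFKP and EGLN1 with HK2. Of these 8, 2 kept the same order in both libraries: LDHA above HK1, and GPI above P4HA1.

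The wider pathway lists showed which further genes were detected. In either list, a gene not detected may still be transcribed where other rows cover its exons, as for PGAM2 and GAPDHS. Of 42 other genes of glucose metabolism 27 were detected, with a median of 3.74 TPM and 7 without a read. The pentose phosphate enzymes PGD and TALDO1 led with 104 ± 10.7 and 81.3 ± 4.73 TPM, followed by the pyruvate dehydrogenase subunit PDHA1 with 69.6 ± 7.48. Other rows cover 21.3% of the PDHA1 exon bases. PFKFB3, which makes the activator of phosphofructokinase, had 47.1 ± 3.95 TPM and held 67.7% ± 3.61 of the transcripts of its 4-gene family. DLAT, another pyruvate dehydrogenase component, had 46.7 ± 9.30 TPM.

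Of 31 other genes of the hypoxia response 24 were detected, with a median of 9.77 TPM. The transferrin receptor gene TFRC had 305 and 186 TPM, and STC2, a secreted glycoprotein gene, had 133 and 153. CA12 came next, followed by the collagen lysyl hydroxylase PLOD2 with 43.8 ± 10.6 and the repressor BHLHE40 with 36 ± 1.34 TPM. The erythropoietin gene EPO had no read in either library.

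Between the 2 libraries, 5 of the 31 detected members differed by more than 0.32 on the log2 scale after TMM scaling (16.1%), against 15.5% of all 14176 detected genes. Higher in replicate 2 were EGLN3 (log2 difference 0.61), NDRG1 (0.43), ENO2 (0.43) and BNIP3 (0.40), 4 members beside 9.04% of all detected genes. SLC16A1 was the 1 member higher in replicate 1 (log2 difference of replicate 2 to replicate 1 -0.37), beside 6.46% of all detected genes. EGLN3, NDRG1 and ENO2 lay below 10 CPM, where the 95th percentile of absolute differences was 0.83 on the log2 scale. BNIP3 and SLC16A1 lay between 10 and 100 CPM, where it was 0.36, and both exceeded it. At 100 CPM or more it was 0.28. Of the wider-list genes named above at that level, TFRC (-0.54), STC2 (0.38), PFKFB3 (0.35) and PLOD2 (-0.32) exceeded it. With 1 library on each side, these differences have no replicate check and describe the libraries only.

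**Figure D4:**
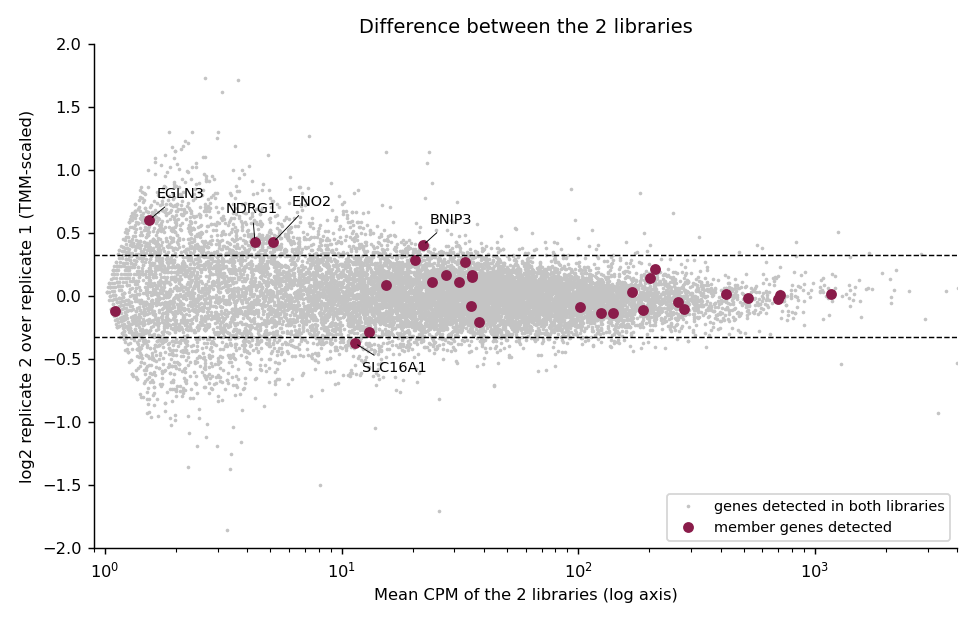
Log2 difference of replicate 2 to replicate 1 after TMM scaling against mean CPM (log axis) for the 14176 detected genes (grey, 12 of them outside the axes) and the 31 detected members (dark), with dashed lines at the fold threshold of 0.32 on the log2 scale. Members above 100 CPM lie between the lines, and the 5 named members lie outside them.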

How the data were processed

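Total RNA of 1 group of 2 libraries was sequenced as stranded, ribosomal RNA-depleted TruSeq libraries, per the labels' protocols. The deposited values are raw whole-number counts per gene; the file headers record featureCounts 2.0.2 on the exons of GENCODE 19, with no strand, pairing or multimapping option. Antisense reads are thus not separated, and reads of near-identical copies are lost. HISAT2 and hg19 (GRCh37) are named in the submitters' processing notes. Columns were matched on the line, the mutated residue and the replicate, since their names do not repeat the siRNA. Another 8 columns of per-sample values match no sample described here and were not used.

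From the deposited counts, CPM and TPM (with the deposited summed exon lengths) were computed over all 57820 genes. Symbols matched 89.9% of identifiers (the rest held 9.83% and 11.6% of reads), and gene types came from GENCODE 29. Intervals are exact Poisson, conditional binomial or binomial 95% intervals of counting error, and a count of 0 was set to a floor of 3 reads per library for ratios. Differences between the libraries used TMM factors of edgeR 4.0.16 with 0.5 reads added. The computation was run on simulated Poisson counts with known folds. These lack variation between replicates beyond counting, so the run says nothing of the calls in these libraries. With 1 group there was no test between conditions. All 33 members were named. Of each wider list, the 5 highest by TPM and the partners of the fixed pairs were named. Further genes of a step, and LDHD, were named for completeness after their values were seen. The members and lists were chosen with earlier results of these data known. Alternatives were other detection thresholds, pseudocount, CPM, another TPM denominator, DESeq2 1.42.0 size factors, library totals, another fold and single replicates. The filters on shared sequence were added after seeing the data. Some genes of the wider lists are not reported here.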

Additional observations from a re-analysis of the deposited data

How the results depend on the processing

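The pair ratios kept their direction under single replicates and a stricter spread limit (99th percentile). Scaled by CPM, PFKP to PFKL turned to -0.061 and P4HA2 to P4HA1 to 0.42 on the log2 scale, PDK2 to PDK1 shrank to 0.25, within the spread, and EGLN2 to EGLN1 at -0.39 lay beyond it; CPM leaves out gene length. Single replicates gave PFKM to PFKL ratios from -0.63 to -0.28 and EGLN2 to EGLN1 ratios from -0.43 to -0.059. The list median of 15.3 TPM was 54.6 over nuclear protein-coding genes, 35.5 in CPM, 14.2 to 15 from single replicates, and 12.6 without the 9 members that share sequence or exons. Without the pairs that share sequence or exons, among them the 1 pair not called, 10 of 10 were called. At 1.5-fold, 1 member was higher in replicate 2 and 0 in replicate 1; all counts of members under other scalings, detection thresholds and filters stayed within 1.5 times. The difference between libraries cannot be recomputed without a replicate. No paired analysis was possible because there is 1 group. Depth limits LDHB, CA9 and SLC2A3, with at most 12 reads each.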
